A study of Homo sapiens with 38 samples.

Results

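The comparison addressed here is between HCT116 cells transfected with siVPS4A#2, an siRNA duplex against VPS4A, and cells that received siCTRL#1, a duplex without a target. It rests on the 4 libraries named for siVPS4A#2 and the 5 named for siCTRL#1, 9 of the 38 libraries of the series, and covers all 12627 listed genes. HCT116 is an established human colorectal carcinoma line. In the study, VPS4A, its paralog VPS4B or both were silenced in these cells, and RNA was collected 72 h after transfection. The siVPS4A#2 cells were given 30 nM of siVPS4A#2 together with 30 nM of siCTRL#1, and the control cells 60 nM of siCTRL#1, so that both groups carried siCTRL#1 and the same amount of siRNA. This follows the sample titles and the transfection protocol, whereas the siRNA field of the siCTRL#1 labels reads none. The replicate numbers coincide with the batches a to e of the labels, and batch e (replicate 5) holds no siVPS4A#2 library.

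VPS4A and VPS4B are AAA ATPases that take apart ESCRT-III filaments. ESCRT complexes sort ubiquitinated membrane proteins into vesicles within endosomes, and ESCRT-III also acts when daughter cells separate and when damaged membranes are sealed. Each paralog can assemble into active complexes, and cells deprived of both lose this recycling step. The question of the comparison was therefore what changes in the transcriptome when 1 paralog is nearly gone and the other stays. A test that finds no difference does not bound one, so each gene is also given with the 95% confidence interval of its fold change, and the genes of endosomes, inflammation and the cell cycle are described by the changes that these intervals leave possible.

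The deposited values were shares of each library, from which whole reads were recovered. The 9 libraries held 5801458 to 10559676 reads over the listed genes, and 3 reads, taken as the floor of detection, corresponded to 0.284 to 0.517 reads per 1000000 reads of a library (RPM). Of 9 epithelial colorectal markers, 7 were listed, and they summed to 5051 to 6585 RPM in the siVPS4A#2 libraries and to 4623 to 7272 in the siCTRL#1 libraries. Of 17 markers of blood, stromal, endothelial and other cells, 5 were listed, with sums of 27.4 to 52.5 and 34.2 to 49.1 RPM. COL1A1 was detected at 16.1 to 34.8 RPM in the siVPS4A#2 and 15.5 to 31.2 in the siCTRL#1 libraries. CD68 was at 5.28 to 9.93 and 5.26 to 10.3, and DES at 5.03 to 6.77 and 7.18 to 9.33. LYZ and PECAM1 stayed under 1 RPM in each of the 9 libraries. A library outside the comparison bears on it through the spread shared by all conditions. The library labelled siVPS4A#1 replicate 2 had 669257 reads, 1.62 RPM of VPS4B against 21.6 to 32.0 in the other siVPS4A#1 libraries, and 304 RPM of CXCL8 against 2.33 to 4.42. It goes against its label, and the bounds and the contrasts with siVPS4A#1 are given with and without it where it changes a call or a direction.

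Silencing with siVPS4A#2 removed nearly all VPS4A mRNA. The gene (NM_013245) spans bases 69345253 to 69360842 of chromosome 16 in GRCh37, plus strand. In the siCTRL#1 libraries it was measured at 197, 172, 179, 191 and 206 RPM (replicates 1 to 5). In the siVPS4A#2 libraries it was at 5.86, 6.20, 8.85 and 10.4 RPM (replicates 1 to 4), from 47 to 77 reads each. The groups were far apart, and the means of 7.83 ± 2.17 (SD, n = 4) and 189 ± 13.8 (SD, n = 5) RPM left 4.14% of the control level. The log2 fold change was -4.51 (standard error 0.29, 95% interval -5.11 to -3.92, limma adjusted p = 5.26e-13), on the scale of log2(RPM + 1) used for every fold change here, which understates the change of low genes. An exact permutation test, two-sided, gave p = 0.00794, the smallest that 4 against 5 libraries allow in 126 splits.

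The paralog remained at a similar level. VPS4B (NM_004869, minus strand of chromosome 18 of GRCh37, 61056423 to 61089716) was at 19.8, 14.3, 22.0 and 22.2 RPM in the siVPS4A#2 libraries. The siCTRL#1 libraries had 23.8, 20.1, 16.4, 18.1 and 24.5. The groups overlapped and the estimate of 0.05 was close to 0 (limma adjusted p = 0.997, exact permutation p = 0.667), but the 95% interval of -0.69 to 0.78 allowed a 1.61-fold lower or a 1.72-fold higher level. Without the library that goes against its label the interval narrowed to -0.43 to 0.37, or 1.35-fold lower to 1.29-fold higher. For comparison, VPS4B was at 0.134 to 0.757 RPM in the libraries of siVPS4B#1 cells.

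**Figure D1:**
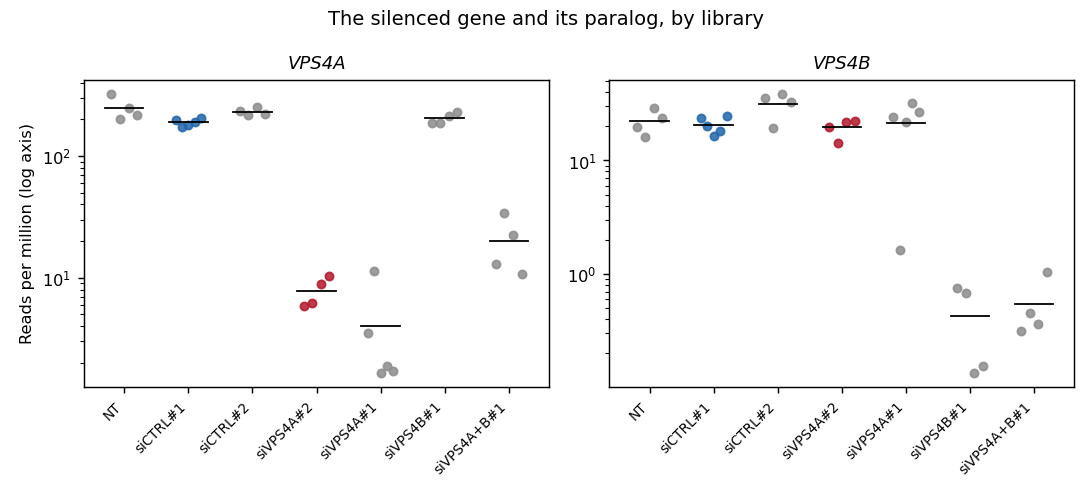
VPS4A and VPS4B in RPM (log axes) in every library of 7 conditions, with siCTRL#1 in blue, siVPS4A#2 in red, other conditions in grey and the group mean as a line. The siVPS4A#2 libraries held 5.86 to 10.4 RPM of VPS4A and 14.3 to 22.2 of VPS4B. The siVPS4A#1 library with 1.62 RPM of VPS4B is the one labelled replicate 2.

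Genes around VPS4A on chromosome 16 were closely bounded. Of 12 neighbours fixed as a list, 11 were listed and 0 passed the test. COG8, a subunit of the conserved oligomeric Golgi complex, overlaps VPS4A by 6800 bases on the opposite strand, and had a log2 fold change of 0.04 with an interval of -0.38 to 0.46. SNTB2, just upstream, had 0.18 (-0.14 to 0.51). All 9 neighbours with a mean of at least 10 RPM had intervals inside 1.5-fold.

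Across the transcriptome, few genes passed the test. At an adjusted p under 0.05 (limma, Benjamini-Hochberg over all genes) and a fold change of at least 1.5, 9 of 12627 genes were called (0.0713%), 5 higher (0.0396%) and 4 lower (0.0317%), VPS4A among the latter. The same number passed without a fold minimum. At an unadjusted p under 0.05, 544 genes (4.31%) passed. The edgeR quasi-likelihood test on the recovered reads called 10 genes and DESeq2 14, and without the replicate block limma called 5. Taken without sign, the log2 fold change had a median of 0.12 over all genes, against 0.28 for siVPS4A#1 and 0.26 for siCTRL#2, each measured against the same siCTRL#1 libraries. The highest estimate, 1.02 for VOPP1, did not pass (standard error 0.26, limma adjusted p = 0.274).

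**Figure D2:**
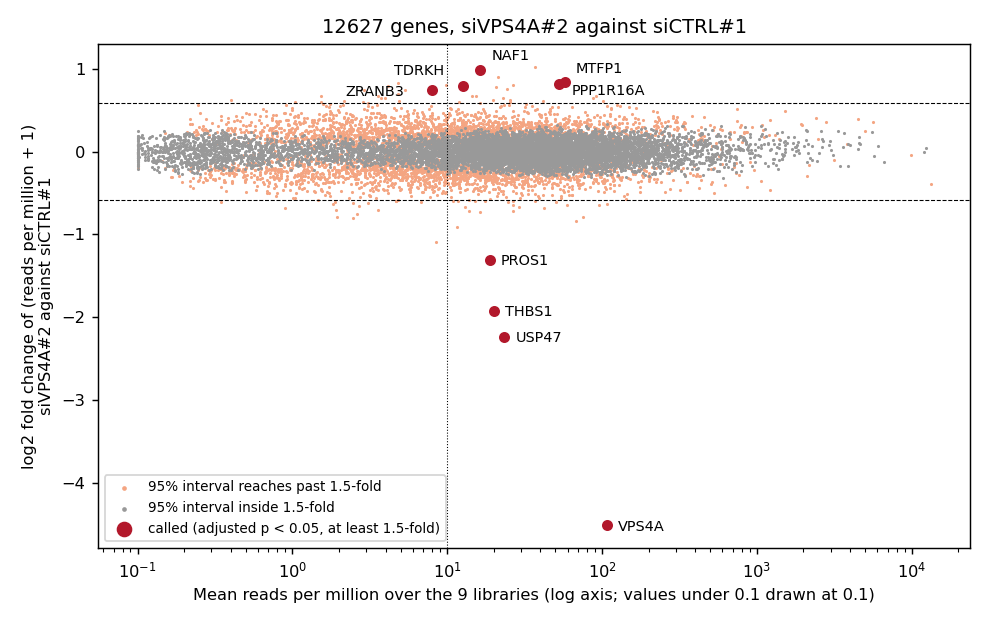
The log2 fold change of (RPM + 1) between siVPS4A#2 and siCTRL#1 for 12627 genes (vertical axis), against the mean level over the 9 libraries in RPM (log axis). Dashed lines mark 1.5-fold and the dotted line 10 RPM. The 4 lowered genes stand apart at -4.51 to -1.31, whereas the 5 raised genes lie between 0.74 and 0.98, at the edge of the cloud.

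Besides VPS4A, the 3 lowered genes were USP47, THBS1 and PROS1. USP47 encodes a ubiquitin-specific protease and is found at 11862970 to 11983434 of chromosome 11 (GRCh37, plus strand). It was at 6.31, 5.94, 10.6 and 5.51 RPM after siVPS4A#2 and at 31.4, 38.03, 38.02, 36.7 and 38.3 after siCTRL#1. The groups did not overlap, and USP47 fell by 2.24 on the log2 scale (standard error 0.20, limma adjusted p = 2.8e-09).

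THBS1 encodes thrombospondin-1, a secreted matrix glycoprotein, on the plus strand of chromosome 15 (39873280 to 39891667). Its levels were 5.58, 8.58, 8.96 and 6.77 RPM with siVPS4A#2 and 29.3, 31.9, 37.5, 22.7 and 29.8 with siCTRL#1. Every siVPS4A#2 library was below every control library, and the log2 fold change was -1.92 (standard error 0.19, limma adjusted p = 1.54e-08). PROS1, which encodes the anticoagulant protein S, lies on the minus strand of chromosome 3 (93591895 to 93698847). It was at 11.3, 6.73, 9.42 and 10.4 RPM against 23.3, 28.4, 24.2, 23.8 and 32.6, again without overlap, with a log2 fold change of -1.31 (standard error 0.18, limma adjusted p = 5.25e-05). Libraries of the groups did not overlap in 298 genes (2.36%) of all those tested.

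The 3 genes were also lower than in other controls. Against NT, the cells without transfection, the log2 fold changes were -2.05 for USP47, -1.23 for THBS1 and -0.82 for PROS1 (limma adjusted p at most 0.0039). Against siCTRL#2, a second non-targeting duplex, they were -2.42, -1.75 and -1.21. Against siVPS4A#1, the other VPS4A duplex, which left less VPS4A mRNA, they were -2.08, -1.42 and -1.26. These contrasts share the siVPS4A#2 libraries and are not independent of each other. All 4 lowered genes were called in each of the 22 alternative analyses of this comparison, including those that left out any 1 of the 9 libraries.

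In another set of libraries the same duplex was combined with siVPS4B#1. It took the place of the 30 nM of siCTRL#1 that siVPS4B#1 cells received, so siCTRL#1 differed between them as well. This mixture of siVPS4A#2 with siVPS4B#1, named siVPS4A+B#1, can be set against siVPS4B#1 cells, a contrast added after the earlier values were seen, in which 930 genes (7.37%) were called. There USP47 was at 11.0, 20.51, 26.3 and 16.5 RPM against 28.9, 38.6, 43.9 and 35.4, a log2 fold change of -0.99 (limma adjusted p = 0.0014) without overlap of the groups. PROS1 had -0.58, under the fold minimum (limma adjusted p = 0.041), and THBS1 -0.38 (limma adjusted p = 0.228). VPS4A itself was at 10.7 to 33.9 RPM in siVPS4A+B#1 cells, higher than after siVPS4A#2 alone by 1.15 on the log2 scale (limma adjusted p = 0.0035). Where siVPS4A#1 was combined with siVPS4B#2 and set against siVPS4B#2 cells, 3103 genes were called (24.6%), with the same difference in siCTRL#1. In that contrast USP47 was not lower (0.31, limma adjusted p = 0.258) and THBS1 was higher (0.65, limma adjusted p = 0.0082). PROS1 had -0.50, again under the fold minimum (limma adjusted p = 0.0319). Against siCTRL#1, cells with siVPS4A#1 alone had -5.53 for VPS4A but -0.16 for USP47, -0.51 for THBS1 and -0.04 for PROS1, and the last 3 were not called. Without the library labelled siVPS4A#1 replicate 2 the values were -5.91, 0.09, -0.54 and 0.03, again with VPS4A alone called. There THBS1 missed only the fold minimum (interval -0.89 to -0.18, limma adjusted p = 0.0153).

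The 5 raised genes were NAF1, MTFP1, PPP1R16A, TDRKH and ZRANB3, with adjusted p-values of 0.0246 to 0.0466 (limma). NAF1, an assembly factor of H/ACA ribonucleoproteins, was at 22.1, 19.1, 19.7 and 23.2 RPM after siVPS4A#2 and at 6.69, 16.7, 8.96, 7.75 and 23.3 after siCTRL#1. Its groups overlapped, since control replicates 2 and 5 were far above the other 3, and the log2 fold change was 0.98 (standard error 0.20, exact permutation p = 0.0952 over splits that ignore the batch). Within batches NAF1 was higher after siVPS4A#2 in 4 of 4 pairs, as were the other raised genes. The fit that called these genes used the same libraries with the batch as a term, so the pairs are no separate evidence. MTFP1, which takes part in mitochondrial fission, was at 60.4, 90.9, 79.5 and 80.0 against 41.1, 39.2, 52.7, 34.2 and 42.5, without overlap, with a log2 fold change of 0.84 (standard error 0.16).

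PPP1R16A, a regulatory subunit of protein phosphatase 1, was at 58.6, 75.4, 59.0 and 76.6 RPM against 34.0, 54.8, 34.5, 30.0 and 55.2 (log2 fold change 0.81). TDRKH, a tudor domain protein of the piRNA pathway, was at 13.6 to 21.4 against 6.69 to 13.7 (0.80), and the groups overlapped. ZRANB3, a DNA translocase that acts at stalled replication forks, was at 9.77 to 11.2 against 4.73 to 6.86 (0.74), without overlap. For NAF1, PPP1R16A and TDRKH alike, control replicates 2 and 5 were the highest of the siCTRL#1 libraries, and these 2 were also the most deeply sequenced of the 5, with 7561496 and 10029811 reads. The part of depth in these calls was not tested.

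Compared with untransfected cells, the raised genes gave no call. None of the 5 was past the test against NT, where their log2 fold changes ran from -0.50 to 0.45 (limma adjusted p of 0.0908 to 0.757), although 799 of all genes (6.33%) were called there. Between siCTRL#1 and NT cells, 926 genes (7.33%) were called. In siCTRL#1 cells NAF1, PPP1R16A and ZRANB3 were themselves lower than in NT cells, by -1.48, -0.94 and -0.64 (limma adjusted p at most 0.0052). Against siCTRL#2, where 1971 genes (15.6%) were called, PPP1R16A was called with 0.72, and the other 4 were not. All 5 lost their calls when only the libraries of the 2 conditions were fitted, and when siVPS4A#2 replicate 2 or 4 or siCTRL#1 replicate 1, 3 or 4 was left out; 0 to 4 of them were lost in the other analyses.

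**Figure D3:**
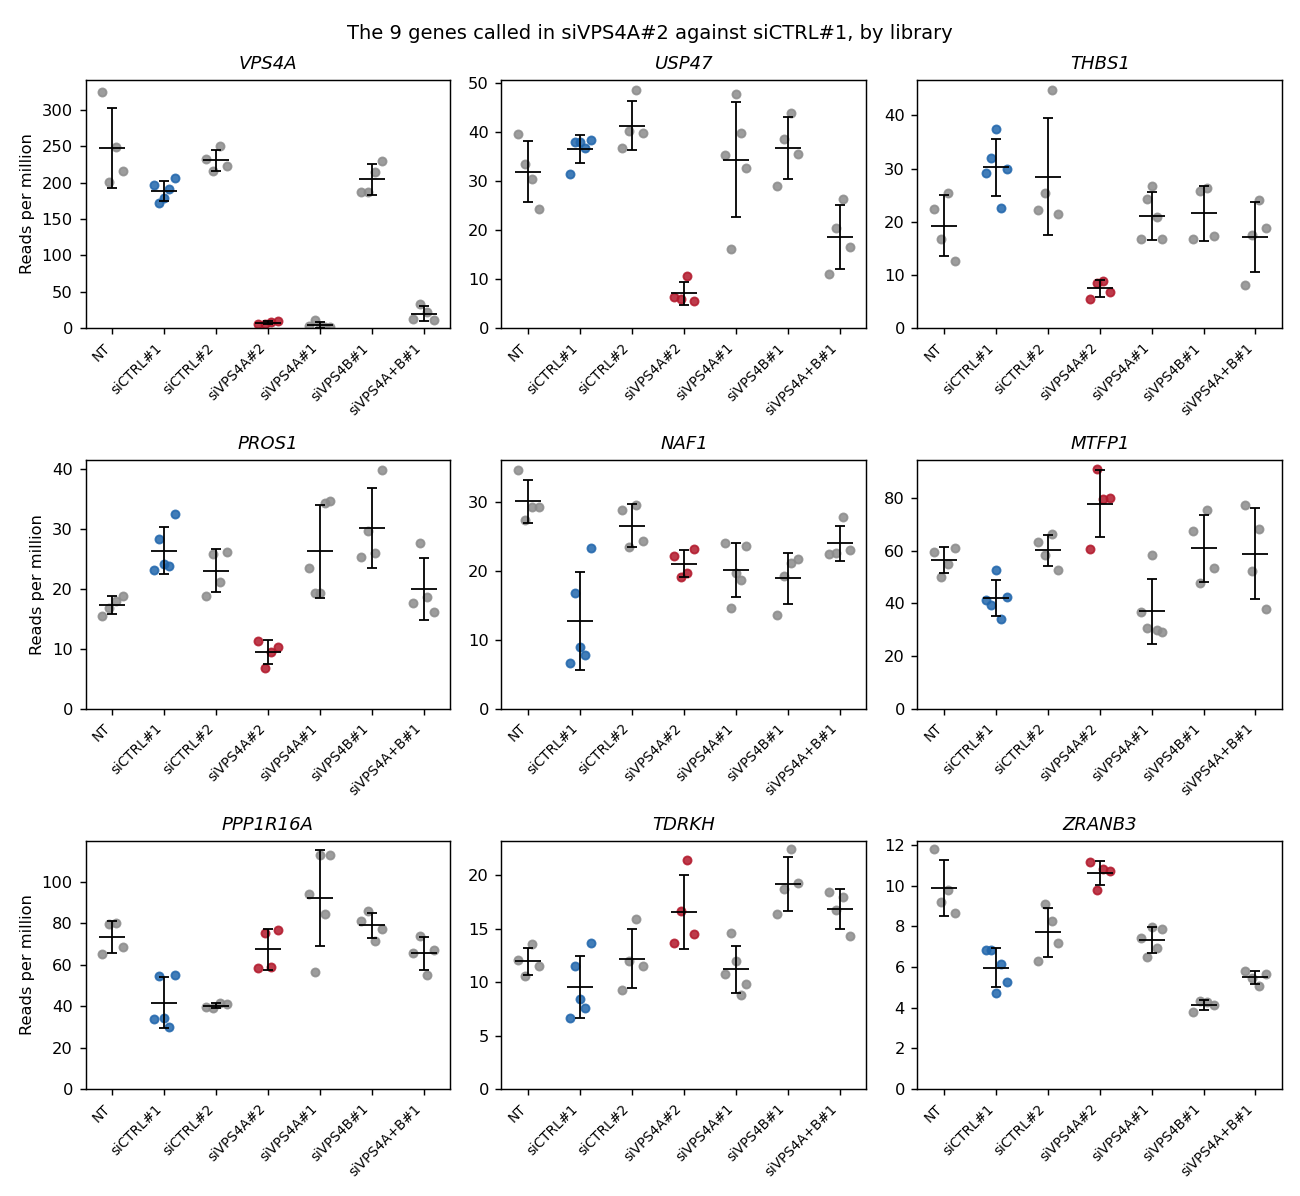
The 9 called genes in every library of 7 conditions, in RPM (linear axes from 0), with siCTRL#1 in blue and siVPS4A#2 in red; the bars are the mean ± SD. USP47, THBS1 and PROS1 are lower after siVPS4A#2 than in every library of NT, siCTRL#1 and siCTRL#2. NAF1 and PPP1R16A after siVPS4A#2 lie within or below the level of NT cells.

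For the genes that did not pass, the intervals state how large a change the data leave possible. A gene was taken as bounded when its whole 95% interval lay between a 1.5-fold fall and a 1.5-fold rise, which held for 8520 of 12627 genes (67.5%). Since adding 1 RPM compresses the fold of low genes, the 8300 genes with a mean of at least 10 RPM were counted apart. Of these, 6304 (76%) were bounded within 1.5-fold and 8199 (98.8%) within 2-fold. The farther limit of the interval had a median of 0.47, or 1.38-fold, and for 95% of these genes it was no more than 0.80, or 1.74-fold. The median half-width was 0.38 at 10 to 30 RPM and 0.31 at 100 to 300. Without the library labelled siVPS4A#1 replicate 2, 7069 of the 8300 genes were bounded within 1.5-fold and 8255 within 2-fold. These intervals hold gene by gene. If the 95% level is to hold for all genes at once, 3267 of the 8300 remain bounded within 2-fold and 4 within 1.5-fold.

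**Figure D4:**
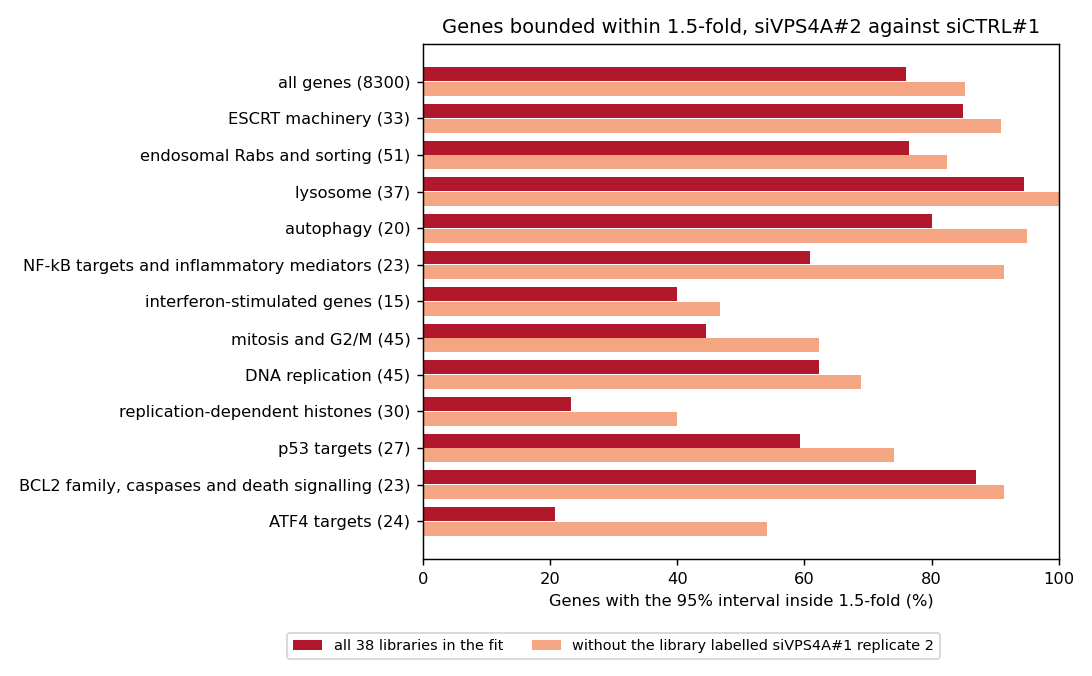
Percentage of genes with the 95% interval of the log2 fold change inside 1.5-fold, for all genes and for 12 lists; the number in brackets is of genes with a mean of at least 10 RPM. Dark bars are from all 38 libraries and light bars from the fit without the library labelled siVPS4A#1 replicate 2. The NF-kB list goes from 14 to 21 of 23 members and the ATF4 list from 5 to 13 of 24.

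The 22 lists of named processes held 617 listed genes, 499 of them with a mean of at least 10 RPM. Of the 617 genes, 0 passed the test with limma. None was called among the related AAA ATPases of the meiotic clade beside VPS4A and VPS4B (katanins, spastin, fidgetins), of which 5 of 6 were listed, with log2 fold changes of -0.11 to 0.12. Counts below are of members with a mean of at least 10 RPM, unless another base is given.

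The endosomal sorting machinery came first, since VPS4 acts on it. All 34 ESCRT genes were listed, 33 at or above the minimum, and 28 of the 33 were bounded within 1.5-fold and all 33 within 2-fold. Their median log2 fold change was 0.04, against 0.00 over all genes, and none had an unadjusted p under 0.05. The highest upper limit belonged to CHMP4A, an ESCRT-III subunit, at 16.7, 17.9, 29.2 and 17.5 RPM after siVPS4A#2 and 14.9, 11.6, 19.6, 19.4 and 17.5 after siCTRL#1. These groups overlapped, and a rise of more than 1.59-fold lay outside the interval. VPS37B, an ESCRT-I subunit, had the lowest lower limit, with 74.5 to 109 RPM against 98.7 to 126, and a fall of more than 1.61-fold was outside its interval.

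Of 57 listed genes of endosomal Rabs and sorting, 51 reached the minimum; 39 of these were bounded within 1.5-fold and all 51 within 2-fold. RAB7A, the Rab of late endosomes, was at 270, 204, 201 and 235 RPM against 257, 204, 177, 220 and 172, and its interval of -0.14 to 0.39 allowed a rise of up to 1.31-fold. TFRC, the transferrin receptor, was at 304 to 396 against 298 to 344 (-0.24 to 0.44). EEA1, an early endosome tether, was low, at 3.30 to 5.22 against 3.01 to 4.66, with an interval of -0.35 to 0.52. In all 3 genes the groups overlapped.

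The members with the outermost limits were VPS29, a retromer subunit, and RAB31, a Rab of endosomal transport. VPS29 was at 32.9, 38.8, 37.7 and 45.5 RPM against 32.1, 32.8, 29.2, 27.6 and 25.98, with an interval of -0.0045 to 0.66. RAB31 was at 94.6, 98.2, 98.7 and 59.1 against 103, 127, 104, 126 and 118, with an interval of -0.97 to -0.01. Neither pair of groups overlapped and neither gene passed the test (limma adjusted p = 0.997 for both). Of the 57 genes, 4 (7.02%) had an unadjusted p under 0.05, against 4.31% of all genes. These 4, named after their values were seen, were RAB11B, RAB22A, RAB31 and CLTC, at -0.37, -0.46, -0.49 and -0.43, and their adjusted p-values were 0.946 to 0.997 (limma).

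Lysosomal genes were tightly bounded. Of 44 listed, 37 reached the minimum, 35 were bounded within 1.5-fold and all 37 within 2-fold, with a median of -0.05 over the 44. LAMP1, a lysosomal membrane protein, was at 33.8, 33.7, 42.5 and 37.3 RPM against 36.6, 38.9, 42.9, 35.3 and 27.0, and a 1.29-fold rise and a 1.23-fold fall were its limits. The outermost members were ATP6V0D1, a subunit of the vacuolar proton pump, with a limit of 1.67-fold higher, and the protease CTSL with 1.52-fold lower. Of 20 autophagy genes, 16 were bounded within 1.5-fold and all 20 within 2-fold. ATG12, a ubiquitin-like conjugation factor, was at 41.0 to 44.6 against 31.7 to 38.1 without overlap, but did not pass (0.29, interval -0.15 to 0.74). SQSTM1, an autophagy receptor, had a lower limit of 1.74-fold, or 1.30-fold without the library labelled siVPS4A#1 replicate 2.

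Of 53 NF-kB targets and inflammatory mediators, 44 were listed and 23 reached the minimum. Of these 23, 14 were bounded within 1.5-fold and 22 within 2-fold, and 21 and 22 without the library labelled siVPS4A#1 replicate 2. The exception to 2-fold was BIRC2, an inhibitor of apoptosis, at 23.5, 45.4, 25.9 and 36.1 RPM against 48.5, 44.4, 49.8, 48.7 and 58.6. Its interval of -1.25 to -0.11 lay below 0, its groups overlapped through siVPS4A#2 replicate 2, and it was not called (exact permutation p = 0.0159, limma p = 0.0214 unadjusted and 0.997 adjusted); with limma array weights it was called. A rise of any of the 23 beyond the 1.51-fold limit of CFLAR was outside the intervals.

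NFKBIA, which encodes the inhibitor of NF-kB, was at 83.5, 82.0, 74.5 and 69.8 RPM after siVPS4A#2 and at 102, 67.0, 67.1, 99.5 and 68.6 after siCTRL#1 (interval -0.64 to 0.43). In siVPS4A+B#1 cells it was at 256 to 393. RELA, a subunit of NF-kB, was at 108 to 137 against 108 to 157 (interval -0.45 to 0.22), and NFKB2, the precursor of another, at 135 to 179 against 115 to 203 (-0.66 to 0.57). The cytokine gene IL18 was at 93.9 to 158 against 120 to 160 (-0.62 to 0.27). In all 4 genes the groups overlapped. Without the library labelled siVPS4A#1 replicate 2 the intervals were -0.36 to 0.26 for NFKBIA and -0.43 to 0.22 for RELA. For NFKB2 and IL18 they were then -0.32 to 0.36 and -0.46 to 0.18.

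The chemokine CXCL8 was at 3.20, 2.51, 2.76 and 3.62 RPM after siVPS4A#2 and at 3.35, 2.87, 3.55, 3.44 and 3.39 after siCTRL#1, against 126 to 345 in siVPS4A+B#1 cells. The siVPS4A#2 and siCTRL#1 libraries overlapped within this narrow range. The interval of -1.66 to 1.08 was much wider than the range of the 9 libraries, because the spread is shared with the siVPS4A#1 libraries, of which the one labelled replicate 2 had 304 RPM; without it the interval was -0.61 to 0.35, a rise of at most 1.27-fold on the log2(RPM + 1) scale. CXCL2, another chemokine, was at 0.158 to 1.61 against 0.718 to 2.20, close to the floor, with an interval of -0.85 to 0.06 without that library.

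BIRC3, an NF-kB target that inhibits apoptosis, was at 6.31, 7.26, 7.12 and 5.04 RPM against 8.03, 10.5, 9.63, 7.89 and 8.10. Every siVPS4A#2 library lay below every control library (exact permutation p = 0.00794), and the estimate was -0.54 with an interval of -1.62 to 0.53 (limma adjusted p = 0.997). Without the library labelled siVPS4A#1 replicate 2 it was -0.42 with an interval of -0.82 to -0.01, still not past the test. In siVPS4A+B#1 cells BIRC3 was at 145 to 365 RPM. TNFAIP3, a feedback inhibitor of NF-kB, was at 2.76 to 3.57 against 3.01 to 6.59. Among the 21 members under the minimum, 0 passed the test, and the highest value in any siVPS4A#2 library was 10.6 RPM, for NFKBIE.

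Of 33 listed interferon-stimulated genes, 15 reached the minimum; 6 were bounded within 1.5-fold and 14 within 2-fold. The exception was UBE2L6, the conjugating enzyme of ISG15, with 14.3 to 29.8 RPM against 27.0 to 33.6 and a lower limit of 2.45-fold. IFI35 had the highest upper limit, 1.53-fold. A longer list, the inflammatory response term of the Gene Ontology, was one the study had picked out on these samples and is no independent evidence. Of its 350 listed genes, 196 reached the minimum, 123 were bounded within 1.5-fold and 187 within 2-fold. THBS1 and PROS1 belong to it and fell; THBS1 is a matrix protein and PROS1 an anticoagulant. No member rose past the test, and the farthest upper limit was 2.54-fold, for CUEDC2 (1.93-fold without the library labelled siVPS4A#1 replicate 2).

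Cell-cycle genes were less tightly bounded than endosomal ones. Of 49 listed genes of mitosis and G2/M, 45 reached the minimum, of which 20 were bounded within 1.5-fold and all 45 within 2-fold. Their median log2 fold change was 0.10 against 0.00 over all genes. CCNB1, the mitotic cyclin B1, was at 83.8, 106, 150 and 109 RPM against 68.6, 101, 106, 88.7 and 120, with limits of 1.18-fold lower and 1.52-fold higher. CDK1, its kinase, was at 142, 153, 143 and 157 against 141, 150, 126, 133 and 152, with limits of 1.40-fold lower and 1.45-fold higher. The groups overlapped in both. The outermost members were AURKA, a mitotic kinase, with an upper limit of 1.95-fold, and PRC1, which bundles microtubules of the central spindle, with a lower limit of 1.98-fold. Without the library labelled siVPS4A#1 replicate 2, 28 of the 45 were bounded within 1.5-fold.

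Genes of DNA replication gave a like picture, with 28 of 45 bounded within 1.5-fold, all 45 within 2-fold and a median of 0.13 over the 50 listed. ORC1, of the origin recognition complex, had the upper limit of 1.97-fold, and MCM5, of the replicative helicase, the lower limit of 1.57-fold. The replication-dependent histone genes, whose mRNAs accumulate in S phase, had a median of 0.20 over 42 genes. Of the 42, 4 (9.52%) had an unadjusted p under 0.05 (limma), against 4.31% of all genes. Of 30 that reached the minimum, 7 were bounded within 1.5-fold and 29 within 2-fold. H2AC4 was the exception, at 106 to 205 RPM against 68.2 to 169, with an upper limit of 2.03-fold; without the library labelled siVPS4A#1 replicate 2 it was 1.72-fold, and 30 of the 30 genes were within 2-fold. Histone genes are near-identical copies, so that reads may be shared among them, and their mRNAs lack the usual poly(A) tail.

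**Figure D5:**
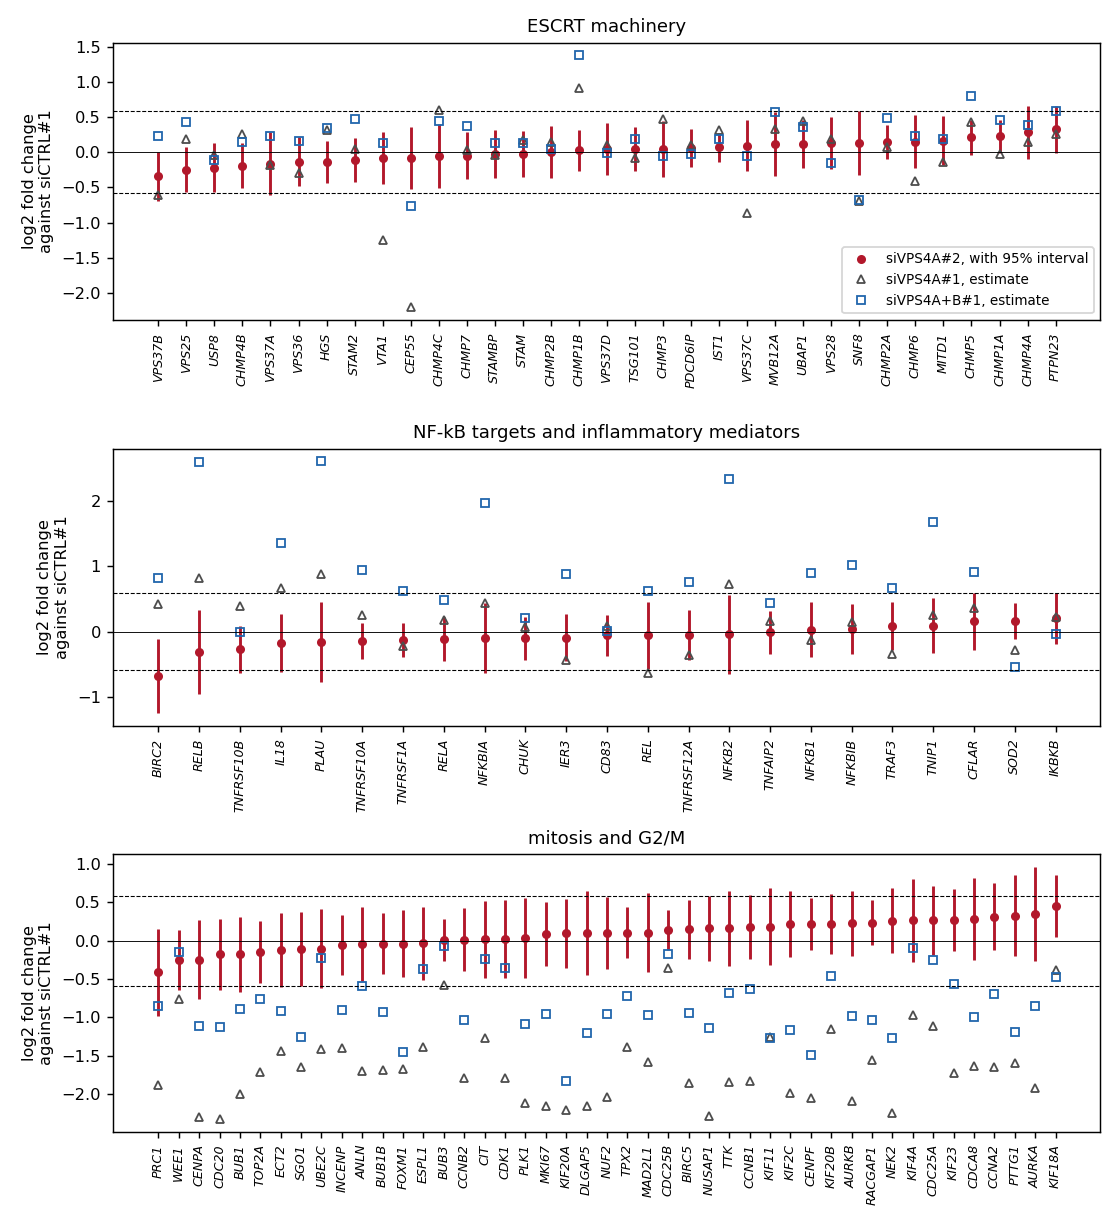
Log2 fold changes against siCTRL#1 of ESCRT genes, NF-kB targets and mitotic genes with a mean of at least 10 RPM (one column per gene, ordered by the siVPS4A#2 estimate); red points and bars are siVPS4A#2 with 95% intervals, triangles siVPS4A#1 and squares siVPS4A+B#1, all against the same siCTRL#1 libraries. Dashed lines mark 1.5-fold. The siVPS4A#2 intervals of all ESCRT and mitotic genes stay within 2-fold, and of the NF-kB targets only BIRC2 reaches past it, downward.

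None of the p53 targets was called. CDKN1A, the cell-cycle inhibitor p21 and a p53 target, was at 463, 471, 491 and 638 RPM after siVPS4A#2 and at 632, 756, 836, 598 and 721 after siCTRL#1. The groups overlapped through siVPS4A#2 replicate 4, and the estimate of -0.40 (interval -0.76 to -0.04) did not pass the test (limma adjusted p = 0.997). Of 27 p53 targets, 16 were bounded within 1.5-fold and all 27 within 2-fold. Among the 28 listed, 2 (7.14%) had an unadjusted p under 0.05 (limma), against 4.31% of all genes. TP53INP1, a p53-induced nuclear protein, was at 7.25 to 9.65 against 11.5 to 14.5 without overlap, and a fall of more than 1.98-fold was outside its interval.

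Of 23 genes of the BCL2 family, caspases and death signalling, 20 were bounded within 1.5-fold and 22 within 2-fold. The exception was BMF, a pro-apoptotic BH3-only member, at 9.24 to 16.4 RPM against 11.8 to 25.1, with a lower limit of 2.29-fold. BAK1, a pore-forming member, was at 37.9 to 49.4 against 30.5 to 48.0 (interval -0.06 to 0.56), and the groups overlapped. Of the Gene Ontology term for positive regulation of programmed cell death, which the study had also picked out on these samples, 468 genes were listed, 334 reached the minimum, and 240 of these were bounded within 1.5-fold and 329 within 2-fold; THBS1 was the one called.

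The stress genes under ATF4, a transcription factor of amino acid and unfolded protein stress, were loosely bounded. Of 24 members, 5 were bounded within 1.5-fold, 13 without the library labelled siVPS4A#1 replicate 2, and all 24 within 2-fold. CHAC1, which degrades glutathione, was at 253, 227, 87.4 and 111 RPM after siVPS4A#2 and at 332, 133, 64.0, 294 and 66.7 after siCTRL#1. ASNS, asparagine synthetase, was at 340, 267, 170 and 209 against 366, 143, 84.1, 319 and 121. Both genes varied several-fold among libraries of the same group, and control replicates 1 and 4 were the high ones. Their estimates were -0.10 (interval -0.90 to 0.69) and 0.25 (-0.32 to 0.83). The 2-fold bound of the list did not hold in every fit. Without the replicate block, the limits of CHAC1 were 2.36-fold lower and 2.80-fold higher. TRIB3, another member, then reached 2.47-fold higher. With DESeq2 the lower limits were 2.19-fold for CHAC1 and 2.17-fold for TRIB3.

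For the remaining lists, the members bounded within 1.5-fold and within 2-fold were as follows. Of 22 ER chaperones they were 18 and 22, of 17 heat shock genes 13 and 17, of 19 NRF2 targets 12 and 19, of 32 genes of sterol and fatty acid synthesis 20 and 31, of 18 immediate-early genes 7 and 17, and of 10 genes of MHC class I presentation 7 and 10. The members outside 2-fold were INSIG1, a sterol-regulated inhibitor of lipid synthesis (limit 2.71-fold lower), and EGR1, a growth-induced transcription factor (limit 2.71-fold higher). EGR1 was at 24.5 to 293 RPM against 19.9 to 174, so that the range within each group was far larger than the difference of the means.

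The other duplex against VPS4A offers the closest comparison. Between siVPS4A#2 and siVPS4A#1 directly, 2556 genes were called (20.2%), 1531 higher (12.1%) and 1025 lower (8.12%) with siVPS4A#2, and 2828 without the library labelled siVPS4A#1 replicate 2. VPS4A was at 3.51, 11.3, 1.64, 1.88 and 1.72 RPM with siVPS4A#1, and 1.02 higher on the log2 scale with siVPS4A#2 (standard error 0.29, limma adjusted p = 0.0082). Of 49 genes of mitosis and G2/M, 47 were higher with siVPS4A#2 and 0 lower, with a median difference of 1.81. CCNB1 was at 30.8, 48.6, 23.4, 18.9 and 18.2 RPM with siVPS4A#1, which is below each siVPS4A#2 library (log2 difference 2.01, limma adjusted p = 2.6e-09), and CDK1 differed by 1.82. Of 50 replication genes 41 were higher and 2 lower, and of 42 histone genes 37 were higher and 2 lower.

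ATF4 targets were higher with siVPS4A#2 than with siVPS4A#1 in 17 of 26 genes and lower in 0, and p53 targets were lower in 16 of 28 and higher in 1. CDKN1A was at 1334 to 3337 RPM with siVPS4A#1, 2.16 above siVPS4A#2 on the log2 scale. Of the NF-kB targets, 0 of 44 were higher and 6 lower with siVPS4A#2, but without the library labelled siVPS4A#1 replicate 2 these counts were 5 and 2, with a median of 0.03 in place of -0.16. The mitotic, replication, ATF4 and p53 counts without it were 48, 42, 19 and 19 in the same directions.

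Set side by side against the same siCTRL#1 libraries, the medians of the lists were as follows. Mitotic genes had -1.70 with siVPS4A#1 (46 of 49 called lower), -0.93 with siVPS4A+B#1 (36 lower) and 0.10 with siVPS4A#2 (0 called). NF-kB targets had 0.20 (4 higher and 2 lower of 44), 0.83 (30 higher) and -0.10 (0 called), but without the library labelled siVPS4A#1 replicate 2 the siVPS4A#1 value was -0.05 (0 higher and 5 lower). Lysosomal genes had 0.17 (5 higher of 44), 0.35 (16 higher) and -0.05 (0 called). With siVPS4A#1 2429 of all genes were called (19.2%; 7.33% higher and 11.9% lower; 2790 without the library labelled siVPS4A#1 replicate 2), and with siVPS4A+B#1 2540 (20.1%; 10.6% higher and 9.52% lower). Between siVPS4A+B#1 and siVPS4A#2 directly, 2809 genes were called (22.2%, with 11.6% higher and 10.6% lower). No control is shared there, but only the siVPS4A#2 cells also received siCTRL#1. With siVPS4A+B#1, 33 of 44 NF-kB targets were higher and 38 of 49 mitotic genes lower.

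How few genes are called depends on which control is taken. Against NT, 799 genes were called (400 higher, 3.17%, and 399 lower, 3.16%), and the siCTRL#1 cells themselves differed from NT in 926. Against siCTRL#2, 1971 were called, and siCTRL#2 differed from siCTRL#1 in 1946 (15.4%). These contrasts share libraries, so the counts are not independent. Of the genes farthest from NT, 3 examples show their level in siCTRL#1 cells. SUSD2, a membrane protein with a sushi domain, was at 28.6, 20.2, 12.9 and 17.2 RPM with siVPS4A#2, at 30.9, 25.4, 16.6, 28.8 and 23.1 with siCTRL#1, and at 106, 98.5, 99.7 and 79.4 in NT cells. The receptor kinase gene MET was at 40.3 to 63.7, 34.1 to 58.7 and 180 to 263, and TNNC1, troponin C, was 2.11 above NT and -0.16 against siCTRL#1. Of the lists, p53 targets had 3 of 28 genes called higher than in NT, lysosomal genes 4 of 44, interferon-stimulated genes 3 of 33, mitotic genes 2 of 49, NF-kB targets 1 of 44 and ESCRT genes 2 of 34, the last with 2 lower as well.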

How the data were processed

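RNA was profiled with an amplicon panel of human transcripts (Ion AmpliSeq) in 38 libraries of 9 conditions. Per the study's methods and the submitters' processing notes, the authors aligned reads to the panel's transcripts, counted them with HTSeq 0.6.0, analysed them with DESeq2 1.18.1 and used hg19. The deposited values were a signal, the share of each library taken by each of 12627 genes. Since such shares are whole multiples of what 1 read is worth, whole reads were recovered: all the low values tested came out whole within a tolerance of 0.1, where 47.4% of all values are fine enough to test.

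Reads per 1000000 reads (RPM) were scaled by TMM (edgeR 4.0.16), 1 was added, and log2 values were fitted with limma 3.58.1 (R 4.3.3, intensity trend) over all 38 libraries, with the 9 conditions and the replicate number as terms. The labels give the replicate number as a batch, so it pairs the libraries. Residuals of libraries with the same number had a mean correlation of 0.172 (145 pairs), against -0.0755 (558 pairs) for different numbers. Between siVPS4A#2 and siCTRL#1 themselves the correlations were mixed, at 0.28, -0.19, 0.43 and -0.31 for replicates 1 to 4. Whether the replicates were separate cultures is not stated beyond this, and p-values measure the spread between these libraries. Genes were called at a Benjamini-Hochberg adjusted p under 0.05 and at least 1.5-fold. Intervals are limma's 95% intervals. Exact permutation tests used all splits of 4 against 5 libraries. edgeR's quasi-likelihood test and DESeq2 1.42.0 on the recovered reads, other scalings, filters and pseudocounts, and fits leaving out each library were alternatives. The fit and its intervals were also run on simulated data, and the outcome of that run is not reported here.

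Named genes were VPS4A and VPS4B, all called genes, the members of each list with the outermost interval limits at a mean of at least 10 RPM, the endosomal, inflammatory and death genes that the study names, and the 5 genes that moved farthest each way against siVPS4A#1 and against NT; of these, the ones that bear on a result are given, and some are not reported here. Other genes were chosen after their values were seen. The comparison and the gene lists were chosen with earlier results of these data known. Gene positions are from the GENCODE annotation of GRCh37. Depth per library limits the precision, and floors of 3 reads cover counting error only.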

Additional observations from a re-analysis of the deposited data

Results flagged for a closer look

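In 60 groups of 4 or 5 libraries, from 30 genes, 3 had a library far from the others, where chance marks about 1 group in 20. USP47 was at 31.4 RPM in siCTRL#1 replicate 1, against 36.7 to 38.3 in the other siCTRL#1 libraries. CXCL8 was at 2.87 in siCTRL#1 replicate 2, against 3.35 to 3.55. RIPK1, a kinase of death and inflammatory signalling, was at 27.4 in siVPS4A#2 replicate 4, against 38.1 to 39.8.

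For 11 of the 30 genes the effects of the VPS4A duplexes differed from each other in the direct contrast (limma, adjusted over all genes). Over all genes, 2556 (20.2%) were called there. Some of the 30 were named because they were called against siCTRL#1 with the same siVPS4A#2 libraries, so their count is no independent result. On the log2 scale, siVPS4A#2 was above siVPS4A#1 by 1.02 for VPS4A, 1.06 for MTFP1, 2.01 for CCNB1 and 1.82 for CDK1. The differences were -2.08 for USP47, -1.42 for THBS1 and -1.26 for PROS1. They were -0.61 for EEA1, with the highest adjusted p of the 11 (limma, 0.0312), -0.85 for IL18, and -0.94 and -1.18 for the death genes BAK1 and BIK. The library labelled siVPS4A#1 replicate 2 held 12.9 RPM of EEA1 and 495 of IL18, against 4.42 to 6.28 and 133 to 197 in the other siVPS4A#1 libraries. Without it EEA1 (-0.36, limma adjusted p = 0.162) and IL18 (-0.51, under the fold minimum) were no longer called, and the other 9 genes were. TNFAIP3 (0.71, limma adjusted p = 0.0142) and TDRKH (0.67, limma adjusted p = 0.0022), not among the 11, were called without it.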

How the results depend on the processing

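The 9 calls against siCTRL#1 became 14 with DESeq2, 42 with limma array weights and 76 at an unadjusted p. They became 5 without the replicate block, without scaling or with a pseudocount of 5, and 4 with only the 2 compared conditions. Leaving out 1 of the 9 libraries gave 4 to 13 calls. Without the library labelled siVPS4A#1 replicate 2 there were 11, with GLCE and ZC3HAV1L added. Without the block or pairing, MTFP1, NAF1, PPP1R16A and TDRKH lost their calls. VPS4A kept its direction and call throughout. VPS4B, at 0.05, changed sign with edgeR (-0.047), DESeq2 (-0.044), no replicate block (-0.074), only 2 conditions (-0.0096), array weights (-0.034) and without the library labelled siVPS4A#1 replicate 2 (-0.031), and ran from -0.040 to 0.22 when 1 library was left out, none past the test; with 2 conditions siCTRL#1 replicate 5 is alone in its batch and carries no weight. With a pseudocount of 5, calls against NT went from 799 to 482 and against siVPS4A#1 from 2556 to 1630; leaving out 1 library gave 504 to 1021 against NT, the highest without the library labelled siVPS4A#1 replicate 2, the lowest without siVPS4A#2 replicate 4 and 510 without replicate 3. The 8520 genes bounded within 1.5-fold became 7319 with DESeq2, 8104 without the replicate block, 6392 with a pseudocount of 0.1 and 11411 with one of 5. Leaving out 1 of the 9 libraries gave 6976 to 8198, and without the library labelled siVPS4A#1 replicate 2 there were 9962. At a 95% level over all genes at once, 4 of 8520 genes stayed bounded within 1.5-fold. The causes were not tested. Depth limits the low genes, whose folds are compressed by the added 1.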
